A study of Mus musculus with 21 samples.

Results

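Oxidative phosphorylation in the cortex and hippocampus of GA-Camk2a mice was examined through the 96 genes of the table that encode subunits of its 5 enzyme complexes. The genes were found by symbol, as those beginning with Nduf, Uqcr, Atp5, Cox4i, Cox5, Cox6, Cox7, Cox8, mt-Nd, mt-Co, mt-Cytb or mt-Atp together with Sdha to Sdhd and Cyc1, without the 16 rows of assembly factors (Ndufaf) and labelled pseudogenes (-ps). Of the 64361 gene rows, 104 carried such a symbol, and the 96 with a mean of at least 5 CPM (a gene's counts scaled to a common library total) over the 21 libraries were kept. The members comprised 12 mitochondrially encoded and 84 nuclear genes, the latter divided into 37 of complex I, 4 of complex II, 9 of complex III, 18 of complex IV and 16 of complex V. Ndufa4l2 lay just inside the limit with a mean of 5.86 CPM and Cox4i2 just outside with 4.90 CPM. The other genes under the limit were Atp5g2, Cox7b2, Ndufa11b, mt-Atp8, Atp5o, Ndufs6b and Cox8c.

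The libraries came from bulk RNA measured with prime-seq, in which barcoded oligo(dT) primers mark each sample before pooling. GA-Camk2a mice carry a GFP-tagged poly-GA protein, a dipeptide repeat product of the C9orf72 expansion in ALS, that Camk2a-Cre switches on in excitatory neurons, so glia and interneurons of these mice are not expected to make it. Controls bear the label ctrl, with no alleles or sex in the labels, and the study's staining of this line calls its controls Camk2a. The mice were 30 to 40 weeks old, and the groups held 5 control and 6 GA-Camk2a cortices and 4 control and 6 GA-Camk2a hippocampi from 11 mice, of which 10 gave both tissues. These control numbers follow the labels, whereas the text of the study gives them the other way round between the tissues. Each library belonged to batch 1 or batch 2 of the labels, and both batches held both genotypes in each tissue.

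The respiratory chain passes electrons from NADH (complex I) and succinate (complex II) through complex III and cytochrome c to oxygen at complex IV, and the protons moved on the way drive ATP synthase (complex V). Mitochondrial DNA encodes core membrane subunits of every complex except complex II, and all other subunits are nuclear, so complexes I, III, IV and V have to be assembled from the products of both genomes. Neurons depend on this pathway for the ATP that ion pumping and synaptic transmission consume. Many nuclear subunit genes are known to be driven by the transcription factors NRF1, GABPA (an ETS factor) and YY1.

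Promoter windows from RefSeq (GRCm38.p6, 250 bases before to 50 bases after each start) were found for 67 of the 84 nuclear members. Windows are shown because 52 nuclear members (61.9%, beside 16.3% of all genes) were lower in the hippocampus than in the cortex of GA-Camk2a mice. Between genotypes in the hippocampus, edgeR called 0 of the 84 in the main fit. Searched on both strands, the NRF1 core CGCATGCG stood in 7 windows of members (10.4%) against 1.91% of all 27025 windows, the ETS motif CCGGAAG in 15 (22.4%) against 9.12%, the YY1 motif AAGATGGC in 9 (13.4%) against 2.88% and TATAAA in 6 (8.96%) against 14.2%. At least 1 of the first 3 motifs was present in 27 windows of members (40.3%) and in 13.1% of all windows. The 6 windows below belong to a ubiquitous complex IV subunit (Cox6a1), a pair of isoforms of the same complex IV subunit that went in opposite directions between tissues in GA-Camk2a mice (Cox8a and Cox8b) and 3 lower members with large tissue differences or low interaction p-values (Atp5d, Ndufs6 and Ndufb3), and capitals mark the motif matches on either strand. Cox6a1 (chr5:115348909-115349208, minus strand) has the NRF1 core and an ETS match, Cox8a (chr19:7217567-7217866, minus strand) has 2 ETS matches, Ndufs6 (chr13:73328433-73328732, minus strand) has a YY1 match and Cox8b (chr7:140900397-140900696, minus strand) has none of these 3 and a TATAAA that begins after the annotated start. Atp5d (chr10:80142025-80142324, plus strand) and Ndufb3 (chr1:58586147-58586446, plus strand) hold none of the 4 motifs.
Cox6a1: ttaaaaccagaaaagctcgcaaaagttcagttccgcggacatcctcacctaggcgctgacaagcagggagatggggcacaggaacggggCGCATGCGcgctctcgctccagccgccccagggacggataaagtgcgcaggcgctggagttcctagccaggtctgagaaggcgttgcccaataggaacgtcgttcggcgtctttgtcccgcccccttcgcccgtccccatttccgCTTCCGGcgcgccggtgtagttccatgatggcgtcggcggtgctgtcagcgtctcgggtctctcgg
Cox8a: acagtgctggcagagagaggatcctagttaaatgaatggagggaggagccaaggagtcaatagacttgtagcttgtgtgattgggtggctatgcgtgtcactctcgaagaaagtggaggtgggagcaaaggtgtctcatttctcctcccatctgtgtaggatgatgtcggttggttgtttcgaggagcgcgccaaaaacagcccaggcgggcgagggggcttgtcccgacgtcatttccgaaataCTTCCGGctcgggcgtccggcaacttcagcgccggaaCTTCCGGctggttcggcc
Ndufs6: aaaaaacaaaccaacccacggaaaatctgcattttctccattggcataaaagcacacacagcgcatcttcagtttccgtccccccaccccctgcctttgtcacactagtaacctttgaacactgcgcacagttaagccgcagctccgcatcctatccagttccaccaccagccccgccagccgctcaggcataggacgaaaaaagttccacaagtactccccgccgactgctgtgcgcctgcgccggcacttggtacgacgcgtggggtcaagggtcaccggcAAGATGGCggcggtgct
Cox8b: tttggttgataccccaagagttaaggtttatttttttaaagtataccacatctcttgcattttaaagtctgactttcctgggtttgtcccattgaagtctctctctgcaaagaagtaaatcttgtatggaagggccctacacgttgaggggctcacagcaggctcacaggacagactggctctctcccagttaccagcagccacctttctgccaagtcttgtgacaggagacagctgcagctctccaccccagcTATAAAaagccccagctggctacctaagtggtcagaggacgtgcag
Atp5d: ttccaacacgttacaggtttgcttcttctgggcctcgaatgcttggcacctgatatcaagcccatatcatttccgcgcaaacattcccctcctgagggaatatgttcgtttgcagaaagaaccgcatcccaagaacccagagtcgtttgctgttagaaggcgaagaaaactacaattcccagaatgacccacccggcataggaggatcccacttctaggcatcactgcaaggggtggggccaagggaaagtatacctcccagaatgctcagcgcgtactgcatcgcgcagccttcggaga
Ndufb3: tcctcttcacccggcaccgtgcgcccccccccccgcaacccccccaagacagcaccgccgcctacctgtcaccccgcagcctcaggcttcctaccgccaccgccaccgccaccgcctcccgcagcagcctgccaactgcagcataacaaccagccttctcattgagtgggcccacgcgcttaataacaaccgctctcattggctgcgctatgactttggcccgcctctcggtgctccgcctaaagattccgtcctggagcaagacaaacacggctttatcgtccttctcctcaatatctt

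Total counts per library ranged from 1048201 to 5888102. The GFP row held 0 to 2 counts per library in control cortex and 0 in control hippocampus. In GA-Camk2a mice it held 0 to 4 in cortex and 0 to 1 in hippocampus, and it did not check the labels. The summed hippocampus markers Prox1, C1ql2, Fibcd1, Spink8 and Zbtb20 ran from 91.7 to 154 CPM in control and 94.4 to 149 CPM in GA-Camk2a cortex to 589 to 734 and 563 to 775 CPM in the hippocampi. Of the cortex markers, Cux2 averaged 79.6 ± 21.3 (SD, n = 5) CPM in control cortex and 31.1 ± 4.14 (SD, n = 4) CPM in control hippocampus, whereas Rorb reached 1455, 5303 and 4414 CPM in 3 hippocampi of batch 1 and stayed at or below 165 CPM in the other hippocampi. Among cortices Rorb was 612 CPM in GA-Camk2a mouse 41 and 133 to 214 CPM in the rest. Of the 4 cortex markers, edgeR called Cux2 and Tbr1 lower and Fezf2 higher (0.50, adjusted p = 0.0339) in control hippocampus than in control cortex. Between tissues of GA-Camk2a mice, Cux2 and Tbr1 were lower, and Fezf2 and Rorb higher in hippocampus. Markers of cell types moved with the genotype. The summed excitatory neuron markers averaged 2043 ± 187 (SD, n = 5) CPM in control against 1405 ± 170.2 (SD, n = 6) CPM in GA-Camk2a cortex and 2336 ± 234 (SD, n = 4) against 1187 ± 127 (SD, n = 6) CPM in hippocampus. The summed microglia markers averaged 327 against 899.9 and 306 against 694 CPM, and the astrocyte markers 1784 against 3050.1 and 2128 against 4088 CPM. These sums rest largely on a few genes, such as Gfap, at 163 to 334 CPM in control and 766 to 1530 CPM in GA-Camk2a cortex. By edgeR 6 of 8 microglia markers were called higher in each tissue, but P2ry12 and Tmem119 in neither. Of the 6 astrocyte markers, 3 were called higher in cortex and 4 in hippocampus, and Slc1a2 in neither. Striatal markers were lower in GA-Camk2a than in control cortex, with Drd1 at -1.38 (adjusted p = 5.36e-05), Adora2a at -1.95 (adjusted p = 7.9e-06) and Ppp1r1b at -1.10 (adjusted p = 1.17e-05) by edgeR, and in the hippocampus of controls against their cortex, with Drd1 at -2.88 (adjusted p = 1.38e-06), Adora2a at -3.78 (adjusted p = 5.97e-09) and Ppp1r1b at -1.71 (adjusted p = 2.23e-06). Drd1 averaged 19.0 ± 4.76 (SD, n = 5) CPM in control and 7.51 ± 1.74 (SD, n = 6) CPM in GA-Camk2a cortex. In bulk RNA, fewer cells of a type and less RNA per cell cannot be told apart, and the part of these shifts in the differences below was not tested.

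For some mitochondrial genes, most counts stood on nuclear copies listed in the same table. In the GENCODE transcripts, mt-Co1 (in its last 300 bases), mt-Co2, mt-Co3, mt-Atp6, mt-Nd3, mt-Nd4l and part of mt-Nd4 match annotated nuclear copies at 98% identity or more over at least 100 bases, and mt-Nd1, mt-Nd2, mt-Nd5, mt-Nd6 and mt-Cytb have no such copy. The nuclear copy of mt-Atp6 (Gm10925) held 20698 ± 1851 (SD, n = 5) CPM in control cortex against 414 ± 195 (SD, n = 5) CPM on mt-Atp6 itself. For mt-Co3 (a catalytic core subunit of complex IV) the copy Gm28437 held 19655 ± 1955 (SD, n = 5) CPM against 315 ± 55.2 (SD, n = 5) CPM, and for mt-Co2 the copy Gm28661 held 8344 ± 659 (SD, n = 5) CPM against 32.4 ± 41.4 (SD, n = 5) CPM. The levels of these genes are therefore uncertain. Results on them were recomputed with the 6 copies that the table lists added to their mitochondrial genes, an alternative chosen after the data were seen. The copy of mt-Nd3 (Gm28438) was not among these 6, so nothing was added to mt-Nd3.

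Mitochondrial and nuclear members were first compared as shares of each library over the 4 groups. The nuclear members took 3.57% ± 0.233 (SD, n = 5) of the counts in control cortex, 3.62% ± 0.185 (SD, n = 6) in GA-Camk2a cortex, 3.25% ± 0.169 (SD, n = 4) in control hippocampus and 3.12% ± 0.159 (SD, n = 6) in GA-Camk2a hippocampus. The mitochondrial members took 4.95% ± 0.363 (SD, n = 5), 4.68% ± 0.506 (SD, n = 6), 4.85% ± 0.214 (SD, n = 4) and 4.32% ± 0.303 (SD, n = 6) in the same order. The nuclear share thus separated the tissues more than the genotypes, and it was lower in the hippocampus than in the cortex in 10 of the 10 mice that gave both. The mitochondrial share was lower in the hippocampus in 8 of the 10 mice. In the hippocampus the GA-Camk2a libraries had mitochondrial shares of 4.09, 4.06, 4.28, 4.23, 4.34 and 4.89% and the controls 5.00, 5.01, 4.85 and 4.55%, so that 5 of the 6 GA-Camk2a libraries lay below every control and mouse 41 lay among the controls. With the 6 nuclear copies added, the mitochondrial share was 10.81% ± 0.942 (SD, n = 5) in control cortex, 10.53% ± 0.989 (SD, n = 6) in GA-Camk2a cortex, 10.98% ± 0.624 (SD, n = 4) in control hippocampus and 9.95% ± 0.691 (SD, n = 6) in GA-Camk2a hippocampus, over 2 times the share without them.

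The log2 ratio of mitochondrial to nuclear counts, which needs no library size, averaged 0.470 ± 0.157 (SD, n = 5) in control cortex and 0.365 ± 0.125 (SD, n = 6) in GA-Camk2a cortex. In the hippocampus it averaged 0.579 ± 0.126 (SD, n = 4) in controls and 0.469 ± 0.108 (SD, n = 6) in GA-Camk2a mice. The difference between genotypes was -0.10 in cortex and -0.11 in hippocampus, and between tissues the controls gave 0.11 and the GA-Camk2a group 0.10. Each of these was smaller than the SD within groups of 0.116 to 0.143, and the ranges of the groups overlapped. Other ways of forming the ratio kept the sign, and some exceeded that SD. With the nuclear copies added, the genotype differences were -0.06 in cortex and -0.08 in hippocampus, and the tissue differences 0.16 (SD 0.143) for controls and 0.14 (SD 0.116) for the GA-Camk2a group. Without the highest mitochondrial and the highest nuclear member, the genotype difference in hippocampus was -0.17 (SD 0.117) and the tissue difference of controls 0.15. As a difference of mean log2 CPM, the tissue difference was 0.16 for controls and 0.13 for the GA-Camk2a group. In cortex the genotype difference was -0.15 within batch 1 and -0.03 within batch 2, and the hippocampus gave -0.13 and -0.09. The ratio was higher in the hippocampus in 7 of 10 mice.

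**Figure D1:**
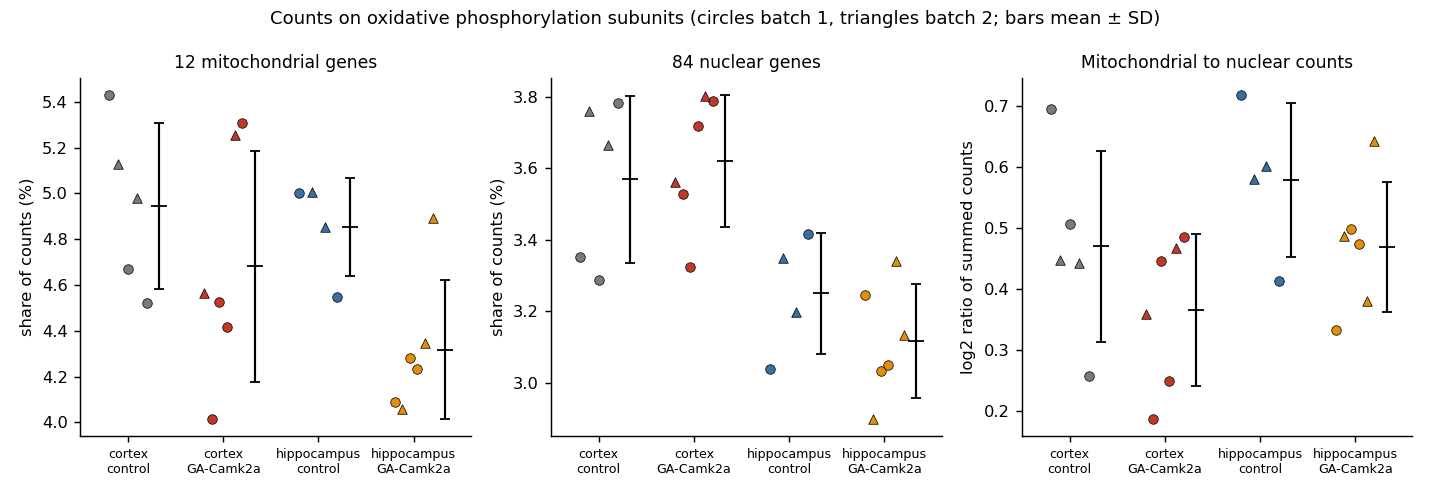
Share of all counts on the 12 mitochondrial genes (left, %) and the 84 nuclear genes (middle, %) and the log2 ratio of both sums (right) in each library of the 4 groups, with mean ± SD; circles are batch 1 and triangles batch 2. The nuclear share sits lower in both hippocampus groups, and the ratio overlaps between all groups.

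Between GA-Camk2a and control cortex a single subunit gene was called. With edgeR's quasi-likelihood test over 13058 genes, 1 of the 96 members passed an adjusted p of 0.05, where 12.5% of all genes tested did (6.35% higher and 6.16% lower). The passing gene was Cox6a2, the heart and skeletal muscle isoform of a regulatory complex IV subunit. None of the 12 mitochondrial members was called by edgeR or DESeq2, 1 was by limma-voom, and 1 had an unadjusted p under 0.05, beside 3389 of all 13058 genes. The median log2 fold change was -0.05 over the mitochondrial, 0.03 over the nuclear members and 0.00 over all genes.

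Cox6a2 was measured at 42.9, 43.6, 32.6, 28.9 and 38.2 CPM in the 5 control cortices and in GA-Camk2a cortices with a lowest value of 38.5, a median of 53.4 and a highest value of 71.9 CPM. The groups overlapped, with 4 of the 6 GA-Camk2a values between 49.1 and 71.9 CPM above all controls. The log2 fold change was 0.55 ± 0.16 (SE, adjusted p = 0.0221). It did not pass without GA-Camk2a mouse 16 (0.44), without control mouse 31 (0.48) or without control mouse 37 (0.47), nor in either batch alone (0.51 and 0.61). In the hippocampus the controls had 16.2, 18.5, 26.8 and 15.0 CPM and the GA-Camk2a mice 22.7, 26.4, 21.2, 32.4, 22.9 and 38.7 CPM, a log2 fold change of 0.52 ± 0.17 (SE, adjusted p = 0.0633) that did not pass. Pvalb, a marker of fast-spiking interneurons, stood at 172 ± 7.08 (SD, n = 5) CPM in control and 204 ± 40.3 (SD, n = 6) CPM in GA-Camk2a cortex. The antisense neighbour Itgad, which overlaps Cox6a2, held 0 to 1.91 CPM in control and 0.650 to 1.80 CPM in GA-Camk2a cortex.

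The other isoforms of complex IV subunits did not pass in cortex. The hypoxia-related Ndufa4l2 had a log2 fold change of 0.56 ± 0.25 (SE, adjusted p = 0.152) and Cox7a2l, which links complexes III and IV, one of 0.22 ± 0.09 (SE, adjusted p = 0.131). In the catalytic core of complex I, which binds the flavin and the iron-sulfur clusters, Ndufv1 had 0.06, Ndufv2 0.11, Ndufs1 -0.02, Ndufs3 -0.05, Ndufs7 0.06 and Ndufs8 0.01 on the log2 scale, and none of these passed. Succinate dehydrogenase, which is also an enzyme of the citric acid cycle, ran from -0.02 (Sdhc) to 0.16 (Sdhd). Cytochrome c1 (Cyc1) had -0.04, the Rieske protein Uqcrfs1 -0.05 and the F1 subunits Atp5a1, Atp5b and Atp5c1 -0.01, -0.07 and -0.03 on the log2 scale.

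In the hippocampus 4 of the 12 mitochondrial members were lower in GA-Camk2a mice and none of the 84 nuclear members passed by edgeR with the filter and all libraries. Of the 84 nuclear members 13 had an unadjusted p under 0.05, a smaller share than the 24.7% of all genes. DESeq2 without the batch term called 4 lower (4.57% of all genes). By limma-voom 1 was lower and 1 higher (6.75% and 5.85% of all genes). edgeR without the filter called 5 lower and 1 higher (1.90% and 1.22% of all genes). Without GA-Camk2a mouse 35 it called 3 lower and 1 higher, where 9.13% of all genes passed in either direction. It called 1 lower without control mouse 11 (8.07% of all genes in either direction), without GA-Camk2a mouse 30 (11.3%) and after thinning (3.36%). Over all 14884 genes tested, 10.9% passed, 4.97% higher and 5.95% lower. The 4 genes, mt-Nd4, mt-Nd1, mt-Nd2 and mt-Nd4l, encode membrane subunits of the proton-pumping arm of complex I. The median log2 fold change was -0.19 over the mitochondrial members, 11 of which were negative, -0.08 over the nuclear members, 62 of which were negative, and 0.02 over all genes. The nuclear median was -0.05 without GA-Camk2a mouse 23, -0.12 without mouse 16, -0.03 after thinning and -0.15 without the filter.

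mt-Nd4 had 9073, 9383, 9365 and 9423 CPM in the 4 control hippocampi and, in the 6 GA-Camk2a hippocampi, a lowest value of 6923, a median of 7578 and a highest value of 8189.8 CPM. All GA-Camk2a values lay below all control values, and the log2 fold change was -0.34 ± 0.08 (SE, adjusted p = 0.0122). mt-Nd4 passed in each of the 10 fits that left out 1 library (-0.37 to -0.32), and was -0.37 and -0.33 in the batches alone, where it did not pass. With its nuclear copy added it was -0.34.

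mt-Nd2 had 4899, 4883, 4862 and 4604 CPM in controls against a lowest value of 3578, a median of 4149 and a highest value of 4372 CPM, and mt-Nd4l had 260.5, 281, 295 and 276 CPM against a lowest value of 211, a median of 242 and a highest value of 258 CPM. Neither gene overlapped between the groups. The log2 fold change was -0.28 ± 0.08 (SE, adjusted p = 0.0479) for mt-Nd2 and -0.26 ± 0.08 (SE, adjusted p = 0.044) for mt-Nd4l. mt-Nd1 had 10704, 10897, 10517 and 9621 CPM in controls against a lowest value of 7870.2, a median of 8765 and a highest value of 9752 CPM, where the GA-Camk2a value of mouse 41 (9752 CPM) lay above control mouse 37. Its log2 fold change was -0.29 ± 0.09 (SE, adjusted p = 0.0474). These 3 calls were close to the threshold. mt-Nd1 passed only without GA-Camk2a mouse 30 or 35 (-0.33 to -0.26 over the fits that left out 1 library), mt-Nd2 only without mouse 35 (-0.31 to -0.23) and mt-Nd4l only without mouse 34 or 35 (-0.29 to -0.24). The number of members called was 1 without control mouse 20, 31 or 37 or GA-Camk2a mouse 16, 23 or 41, 2 without control mouse 11 and 8 without GA-Camk2a mouse 35. In either batch alone, and without 5 hippocampi of high Ttr described further on, 0 members passed. Of all genes 0.720% passed in batch 1, 4.96% in batch 2 and 2.82% without those hippocampi. The latter fit held 5 libraries, and its medians were -0.23 over mitochondrial and -0.10 over nuclear members. Reads of mt-Nd4l and mt-Nd4 overlap on the same strand, so the 2 genes are not independent.

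The remaining mitochondrial members did not pass in the hippocampus. mt-Nd3 had a log2 fold change of -0.27 ± 0.09 (SE, adjusted p = 0.0692) and mt-Nd5 -0.17 ± 0.08 (SE, adjusted p = 0.192). mt-Nd6, the only member transcribed from the light strand, was the positive one at 0.08 ± 0.12 (SE, adjusted p = 0.733), and its reads cannot be told apart from those of the antisense mt-Nd5 where strand was not used. mt-Cytb, the complex III subunit, had -0.13, mt-Co1 -0.12, mt-Co2 -0.22, mt-Co3 -0.16 and mt-Atp6, a membrane subunit of ATP synthase, -0.03 on the log2 scale. With the nuclear copies added, mt-Co2 had -0.24, mt-Co3 -0.23 and mt-Atp6 -0.12, none of which passed.

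**Figure D2:**
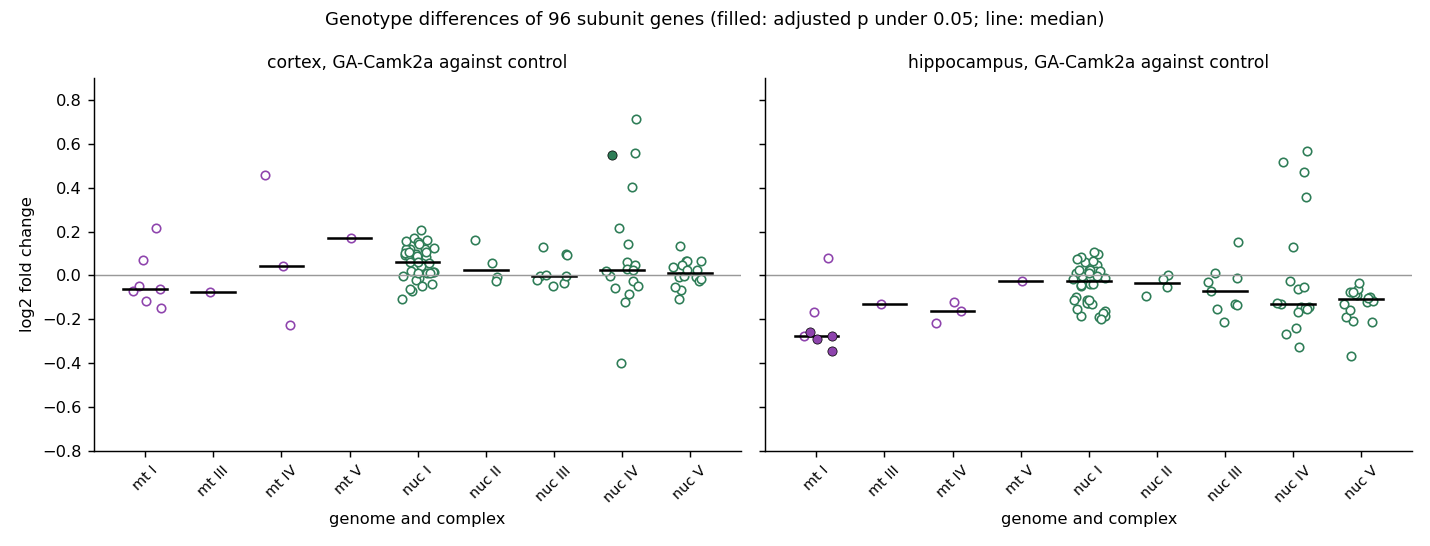
log2 fold change of GA-Camk2a against control in cortex (left) and hippocampus (right) for each of the 96 genes by genome (mt, nuc) and complex; filled points passed an adjusted p of 0.05 and lines are medians. One nuclear gene (Cox6a2) is filled in cortex and 4 mitochondrial complex I genes are filled in hippocampus.

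Among nuclear members of the hippocampus, complex V showed the most uniform sign, with 16 of 16 negative and a median of -0.11, while complex I had a median of -0.03. The most negative values, neither past the threshold, were those of Atp5d, the delta subunit of the F1 stalk, at -0.37 ± 0.14 (SE, adjusted p = 0.106) and Cox8a, the ubiquitous isoform of the smallest complex IV subunit, at -0.33 ± 0.11 (SE, adjusted p = 0.0706). Cox8a had 1413, 1924, 2090.0 and 1948 CPM in controls and a lowest value of 1217, a median of 1484 and a highest value of 1909.6 CPM in GA-Camk2a mice, and the groups overlapped. Atp5b, the catalytic beta subunit of ATP synthase, did not overlap between groups, with 941, 970.3, 922 and 1032 CPM against 849.7, 851, 886, 864, 864 and 857 CPM, yet its log2 fold change of -0.21 ± 0.07 (SE, adjusted p = 0.0867) did not pass. Uqcrfs1 had -0.21 ± 0.08 (SE, adjusted p = 0.0904), and Cox6a1 had -0.27 ± 0.10 (SE, adjusted p = 0.109). In the catalytic core of complex I, Ndufs1 had -0.13 and Ndufs3 0.10, and succinate dehydrogenase ran from -0.10 (Sdhd) to 0.00 (Sdha).

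**Figure D3:**
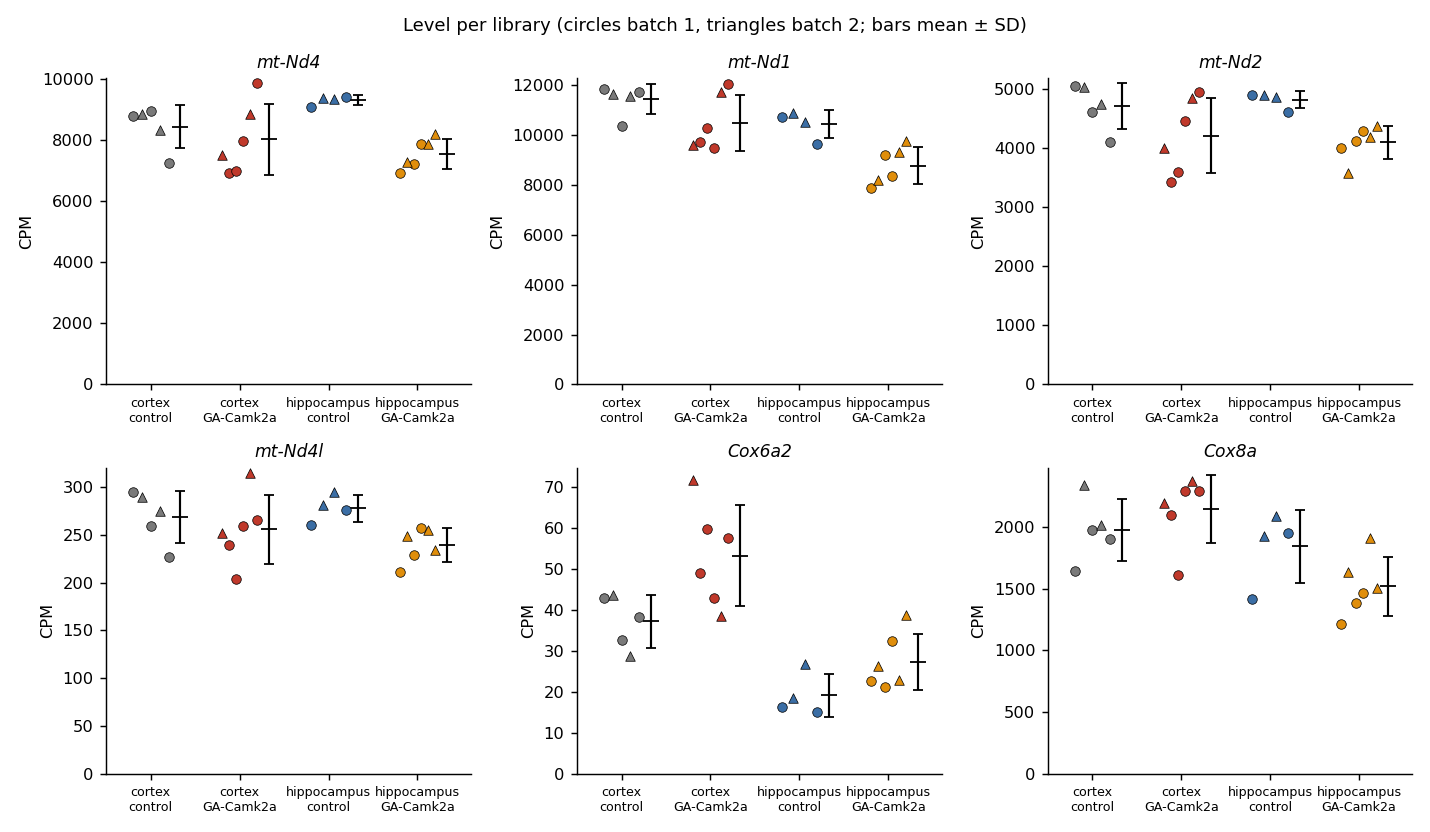
CPM per library of mt-Nd4, mt-Nd1, mt-Nd2 and mt-Nd4l (complex I) and of Cox6a2 and Cox8a (complex IV) in the 4 groups, with mean ± SD; circles are batch 1 and triangles batch 2. In hippocampus the GA-Camk2a values of mt-Nd4 (6923 to 8190) lie below the controls (9073 to 9423), whereas in cortex the genotypes overlap.

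Whether the genotype difference itself differed between tissues was tested as an interaction over all 21 libraries. Of 14751 genes tested, 0.414% passed, and 0 of the 96 members did by edgeR, DESeq2 or limma-voom, with 4 members at an unadjusted p under 0.05, beside 9.95% of all genes. The 3 members with the lowest adjusted p were Cox8a, with a difference of -0.48 ± 0.15 (SE, adjusted p = 0.214), Ndufb3, an accessory subunit of complex I, with -0.28 ± 0.10 (SE, adjusted p = 0.329), and Atp5d with -0.50 ± 0.19 (SE, adjusted p = 0.329). For mt-Nd4 the difference was -0.29 ± 0.13 (SE, adjusted p = 0.471). The calls of mt-Nd4, mt-Nd1, mt-Nd2 and mt-Nd4l in hippocampus and their absence in cortex were thus not shown to differ between tissues. The sign was shared, with 11 of 12 mitochondrial and 75 of 84 nuclear members having a more negative genotype difference in hippocampus than in cortex (medians -0.17 and -0.12, against -0.01 over all genes). Members move together across libraries, and this count is a description.

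Between the tissues of control mice the number of members called depended on the tool, at 12 by edgeR and 43 by limma-voom, which also called more of all genes (23.8%). With edgeR 12 of the 96 members passed over the 14435 genes tested, of which 16.5% passed, 8.9% higher and 7.62% lower. Of the nuclear members, 9 (10.7%, near the 7.62% of all genes) were lower and 2 higher in hippocampus, and of the mitochondrial members 1 was lower. The median was -0.19 over nuclear members, 78 of which were negative, -0.02 over mitochondrial members and 0.00 over all genes. Cox6a2 had the most negative difference of the nuclear members, with 42.9, 43.6, 32.6, 28.9 and 38.2 CPM in cortex and 16.2, 18.5, 26.8 and 15.0 CPM in hippocampus without overlap and a log2 fold change of -1.06 ± 0.18 (SE, adjusted p = 0.000468). Ndufs6, a zinc-binding accessory subunit of complex I, had 111, 107, 119, 92.7 and 101 CPM in cortex and 68.5, 75.6, 90.6 and 75.2 CPM in hippocampus, again without overlap, and a log2 fold change of -0.51 ± 0.11 (SE, adjusted p = 0.00344). Its antisense neighbour Mrpl36 overlaps it, so part of its counts may come from that gene where strand was not used.

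The lower nuclear members in control hippocampus also included Cox5a (-0.40), Cox7a2 (-0.30), Sdhb (-0.34, the iron-sulfur subunit of succinate dehydrogenase) and Ndufs3 (-0.39, with a near-identical copy, Gm12251). When single libraries were removed in turn, Cox8b, Cox6a2 and Ndufs6 always passed (9 of 9 fits), and each of the other 9 members was lost at least once. The number called was 4 without cortex mouse 38 or hippocampus mouse 20, 5 without cortex mouse 20 or 37, 6 without cortex mouse 11 or hippocampus mouse 31, 7 without hippocampus mouse 11 and 41 without cortex mouse 31. Over all genes 22.7% passed without cortex mouse 31, and when any other library was left out the number ran from 1580 of 13721 genes to 2271 of 14211. With the mouse as a block, which uses that 4 of the 5 control mice gave both tissues, 6 of the 12 remained, and Cox6b2 (0.59) was among those lost. In that fit 13.7% of all genes passed.

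In the GA-Camk2a mice 57 of the 96 members passed, against 33.3% of the 13098 genes tested (16.9% higher and 16.3% lower). Of the 84 nuclear members, 52 were lower in hippocampus and 2 higher, and of the 12 mitochondrial members 3 were lower. Lower nuclear members made up 61.9% of the 84, beside 16.3% of all genes. By complex the share was 59.5% in complex I, 50% in complex II, 44.4% in complex III, 77.8% in complex IV and 62.5% in complex V. Neuronal markers were lower in the same comparison, with 4 of 6 excitatory (Slc17a7 at -0.48 (adjusted p = 0.00129) and Nrgn at -0.55 (adjusted p = 0.00143) among them), 4 of 6 inhibitory and 3 of 5 general neuron markers (Rbfox3, Snap25 and Stmn2) called lower and Map2 higher. The astrocyte markers Gfap, at 0.49 (adjusted p = 0.0161), and Aqp4, at 0.77 (adjusted p = 1.56e-05), were higher, and the part of these cell types in the members' differences was not tested. Medians were -0.30 over nuclear members, 80 of which were negative, -0.21 over mitochondrial members and -0.01 over all genes. Of the 57 members, 50 passed in every fit that left out 1 library. Within batch 1 alone 23 nuclear members were lower and 1 higher, where 7.78% of all genes were lower, and within batch 2 alone 12 were lower and 1 higher, where 4.30% were lower.

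Complex IV had the highest share of lower members. Cox8a had a lowest value of 1615, a median of 2242 and a highest value of 2374 CPM in cortex and a lowest value of 1217, a median of 1484 and a highest value of 1909.6 CPM in hippocampus, and the groups overlapped at the low cortex value of mouse 30. The log2 fold change was -0.64 ± 0.11 (SE, adjusted p = 0.000223). Cox6a2 was -1.09 ± 0.16 (SE, adjusted p = 9.04e-05), Cox6a1 -0.50 ± 0.09 (SE, adjusted p = 0.000701) and Cox4i1, the subunit at which ATP inhibits the enzyme, -0.39 ± 0.08 (SE, adjusted p = 0.000812). Outside complex IV, Atp5d had a lowest value of 676, a median of 884 and a highest value of 1029 CPM in cortex and a lowest value of 439, a median of 570.4 and a highest value of 781 CPM in hippocampus with -0.71 ± 0.12 (SE, adjusted p = 0.000332). Ndufs6, with a lowest value of 94.5, a median of 116 and a highest value of 126 CPM in cortex and a lowest value of 60.8, a median of 75.7 and a highest value of 88.7 CPM in hippocampus, did not overlap and had -0.65 ± 0.10 (SE, adjusted p = 0.000182). Ndufb3 did not overlap either, and had -0.45 ± 0.07 (SE, adjusted p = 0.000212).

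Catalytic subunits were called in part. In the core of complex I, Ndufs8 was lower at -0.34 ± 0.07 (SE, adjusted p = 0.00231) and Ndufv1 at -0.31 ± 0.07 (SE, adjusted p = 0.00359), as were Ndufs7 (-0.30) and Ndufv2 (-0.27), whereas Ndufs1 had -0.13 ± 0.09 (SE, adjusted p = 0.263) and Ndufs3 -0.25 ± 0.09 (SE, adjusted p = 0.0519). Of the ATP synthase F1 subunits, gamma (Atp5c1) was lower at -0.35 ± 0.07 (SE, adjusted p = 0.000819), and alpha (Atp5a1, -0.16) and beta (Atp5b, -0.17) did not pass. In complex III, Uqcrfs1 was -0.39 ± 0.07 (SE, adjusted p = 0.000744) and Cyc1 -0.36 ± 0.09 (SE, adjusted p = 0.00365). In complex II, Sdhb (-0.39) and Sdhd (-0.33) were lower and Sdha (-0.11) and Sdhc (-0.02) did not pass. Over all 10 mice with both tissues, 21 of the 84 nuclear members were lower in the hippocampus of every mouse (25%) and 0 were higher in every mouse. Of the 13243 genes with a mean of at least 5 CPM, 4.99% were lower and 8.96% higher in every mouse.

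The mitochondrial members that were lower in the hippocampus than in the cortex of GA-Camk2a mice were mt-Nd1 at -0.37 ± 0.10 (SE, adjusted p = 0.00786), mt-Co1 at -0.29 ± 0.08 (SE, adjusted p = 0.00679) and mt-Co3. mt-Nd1 has no annotated nuclear copy, and had a lowest value of 9467, a median of 10014 and a highest value of 12059.6 CPM in cortex and a lowest value of 7870.2, a median of 8765 and a highest value of 9752 CPM in hippocampus, with overlap. The call of mt-Co1 was lost once its nuclear copy Gm29216 was added (-0.01). Of the copies themselves, edgeR called Gm28661 of mt-Co2 lower at -0.27 (adjusted p = 0.0194) and Gm28439 of mt-Nd4, which held few counts, at -0.80 (adjusted p = 0.0324). Gm28437 (-0.23), Gm10925 (-0.17) and Gm29216 (0.03) did not pass.

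**Figure D4:**
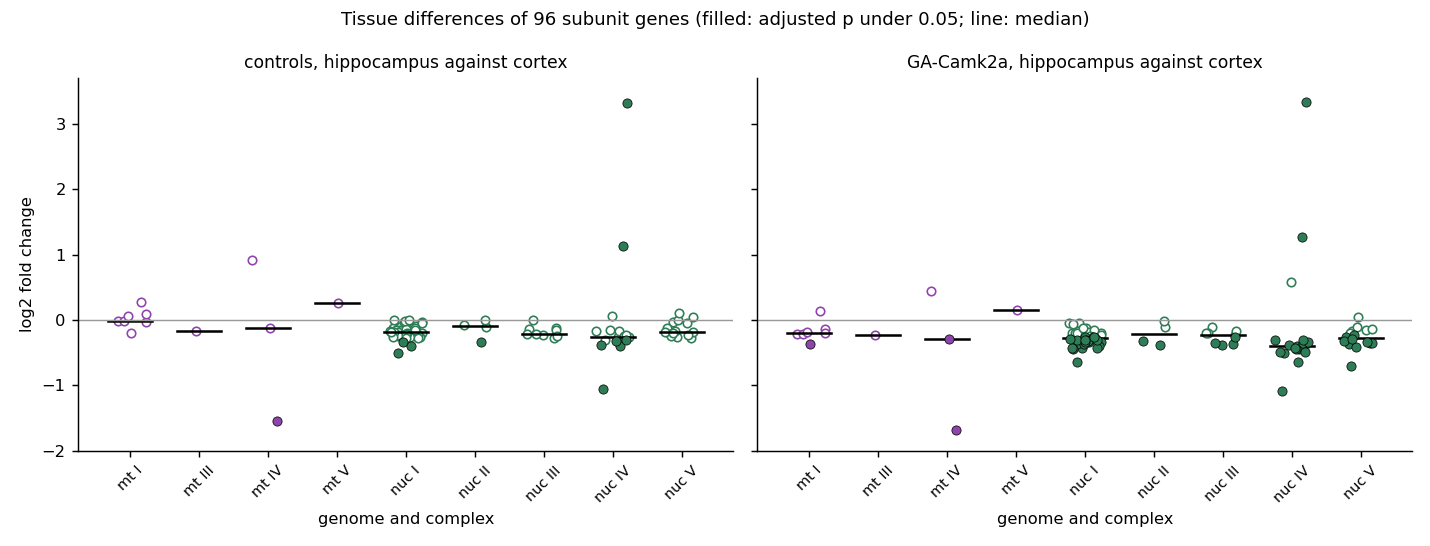
log2 fold change of hippocampus against cortex in controls (left) and GA-Camk2a mice (right) for each of the 96 genes by genome (mt, nuc) and complex; filled points passed an adjusted p of 0.05 and lines are medians. Most nuclear points lie below 0 in both panels, 78 of 84 in controls and 80 of 84 in GA-Camk2a mice, and Cox8b and Cox6b2 stand above.

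The other isoforms of complex IV were compared in the same way. In GA-Camk2a mice the tissue difference was -0.44 ± 0.09 (SE, adjusted p = 0.00101) for Cox6b1, the ubiquitous partner of Cox6b2, -0.48 ± 0.08 (SE, adjusted p = 0.000288) for Cox7a2 and 0.58 ± 0.32 (SE, adjusted p = 0.167) for Cox7a1, its heart and muscle isoform. Ndufa4, a subunit of complex IV once assigned to complex I, had -0.31 ± 0.07 (SE, adjusted p = 0.00428) and its paralog Ndufa4l2 -0.39 ± 0.23 (SE, adjusted p = 0.212). Summed by complex, the nuclear counts of complexes I, II, IV and V were a lower share of the library in the hippocampus in 10 of 10 mice and those of complex III in 9.

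Cox8b and Cox6b2, tissue-restricted isoforms of complex IV subunits, were the members called higher in hippocampus by edgeR in both genotypes, with log2 fold changes of 3.33 ± 0.55 (SE, adjusted p = 0.000387) and 1.13 ± 0.36 (SE, adjusted p = 0.0388) in controls and 3.35 ± 0.77 (SE, adjusted p = 0.00318) and 1.27 ± 0.38 (SE, adjusted p = 0.0155) in GA-Camk2a mice. Within the hippocampus Cox8b varied widely, with 33.5, 76.1, 4.56 and 54.3 CPM in control mice 11, 20, 31 and 37 and 148, 16.2, 117, 3.55, 119.8 and 7.34 CPM in GA-Camk2a mice 16, 23, 30, 34, 35 and 41. High and low values fell in the same libraries as those of Ttr, the transthyretin gene of the choroid plexus, which had 10773, 32490.3, 1786 and 24500.2 CPM and 55186, 9465, 49406, 1949, 45598 and 1813 CPM in the same libraries. The 3 hippocampi with the lowest Ttr (control 31 and GA-Camk2a 34 and 41) had 3.55 to 7.34 CPM of Cox8b, within the 1.52 to 11.4 CPM of the other cortices, and the cortex library with the highest Ttr (GA-Camk2a 34, 8114 CPM) had the highest Cox8b of all cortices (26.6 CPM). A list of 8 choroid plexus genes chosen after these values were seen (Ttr, Folr1, Kl, Kcnj13, Clic6, Otx2, Aqp1 and Sostdc1) summed to 10926, 32829, 1821 and 24805 CPM in the control and 55648, 9578, 49977, 1982, 46067 and 1855 CPM in the GA-Camk2a hippocampi. Ttr itself made up nearly all of each sum, so these sums add little to its own values. Without the 5 hippocampi above 20000 CPM of Ttr, the log2 fold change in GA-Camk2a mice was -0.01 for Cox8b and -0.12 for Cox6b2, and in controls 2.27, still past the threshold, for Cox8b and 0.08 for Cox6b2. The control hippocampi left in that fit were mouse 11 (Ttr 10773, Cox8b 33.5 CPM) and mouse 31 (Ttr 1786, Cox8b 4.56 CPM), so its Cox8b difference rests on mouse 11. Removing single libraries, Cox6b2 in controls passed only without hippocampus mouse 11 or 31 and failed in the other 7 fits (0.75 to 1.23), and in GA-Camk2a mice Cox6b2 failed without hippocampus mouse 30 (1.04). With those 5 hippocampi left out, 58 nuclear members were lower in hippocampus than in cortex in GA-Camk2a mice, where 10.1% of all genes were. In controls 4 of 84 were, about the 4.96% of all genes.

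mt-Co2 differed by batch in both tissues, mt-Co3 in the hippocampus and mt-Atp6 in the cortex apart from 1 library. mt-Co2 had 1.52 to 19.9 CPM in the 7 cortices of batch 1 and 71.9 to 79.9 CPM in the 4 of batch 2. In hippocampus it had 16.7 to 28.7 and 57.3 to 85.4 CPM. Its batches did not overlap in either tissue. mt-Atp6 had 321, 646, 245, 605 and 255 CPM in control and 493, 218, 256, 237, 541 and 738 CPM in GA-Camk2a cortex, where the 4 cortices of batch 2 (mice 20, 37, 16 and 35) and mouse 41 of batch 1 were the high ones. In hippocampus it had 785, 561, 462 and 176 CPM in control and 819.9, 431, 525, 178, 479 and 538 CPM in GA-Camk2a mice, with batch 1 from 176 to 819.9 CPM on both sides of batch 2. The 3 hippocampi of high Rorb (mice 11, 16 and 30) had the lowest mt-Co3 of the hippocampi, and those of mice 11 and 16 the highest mt-Atp6. The cortex of high Rorb (mouse 41) had the lowest mt-Co3 (75.9 CPM) and the highest mt-Atp6 (738 CPM) of the cortices, and the labels give no reason. The tissue difference of mt-Co3 was -1.55 ± 0.47 (SE, adjusted p = 0.0319) for control mice and -1.68 ± 0.49 (SE, adjusted p = 0.0132) for the GA-Camk2a group. It had 386, 243, 349, 287 and 309 CPM in control cortex, 12.3, 266, 239 and 80.7 CPM in control hippocampus, 257, 304, 343, 356, 287 and 75.9 CPM in GA-Camk2a cortex and 6.03, 216, 56.7, 72.3, 240.2 and 248 CPM in GA-Camk2a hippocampus. The low values were the 5 hippocampi of batch 1 and the cortex of GA-Camk2a mouse 41. Within batch 1 control mice gave a tissue difference for mt-Co3 of -2.89 and the GA-Camk2a group one of -2.64, and within batch 2 it was -0.13 and -0.34. With its nuclear copy added it was -0.07 and -0.24, neither of which passed. The control call was also lost without cortex mouse 11 (-1.42) or 38 (-1.50) or hippocampus mouse 37 (-1.39).

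**Figure D5:**
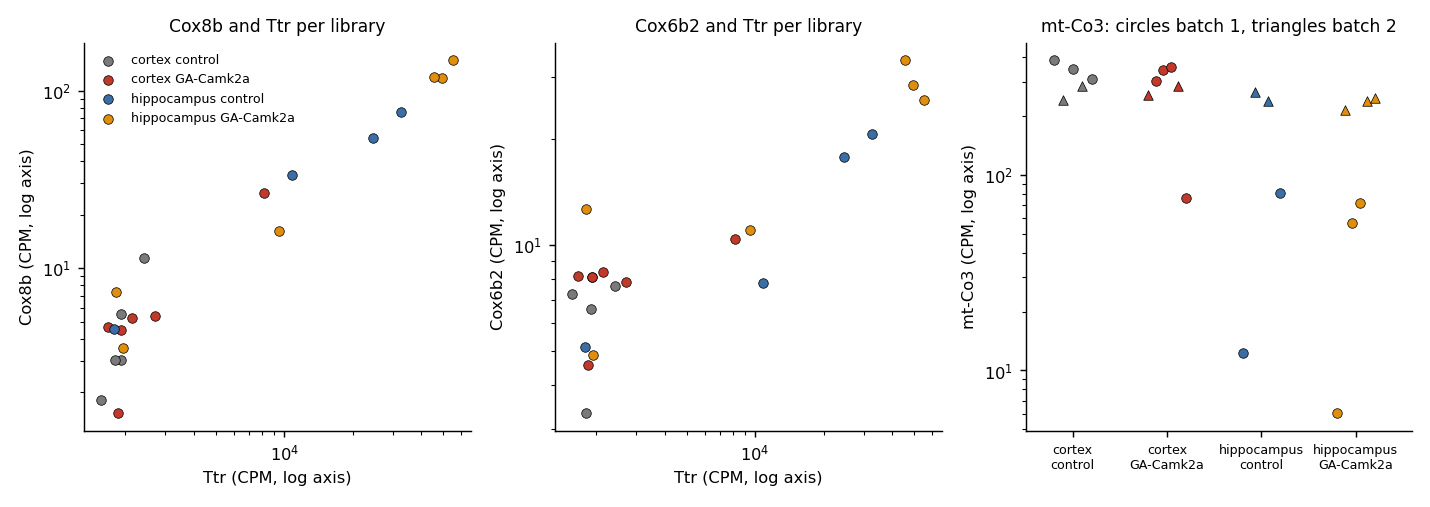
Left and middle, Cox8b and Cox6b2 against Ttr per library (CPM, log axes, colours by group); right, mt-Co3 per library by group (CPM, log axis; circles batch 1, triangles batch 2). Cox8b and Ttr are high in the same libraries, and mt-Co3 is below 100 CPM in the 5 batch 1 hippocampi and in 1 batch 1 cortex.

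Genes around the pathway were counted from lists of assembly factors, carriers and metabolic enzymes. In the GA-Camk2a tissue comparison, 35 of 76 mitochondrial ribosomal proteins tested, which translate the mitochondrial members, were lower in hippocampus (median -0.27) and 0 higher, beside 16.3% lower over all genes. The lower calls were 13 of 27 assembly factors of complexes II to V (among them Cox17, Cox14 and Surf1), 10 of 17 glycolytic genes, 4 of 7 carriers (Cycs, Slc25a3, Slc25a4 and Vdac1), 4 of 15 citric acid cycle genes and 2 of 13 complex I assembly factors, the last near the share over all genes. Of the list of mitochondrial gene expression and biogenesis, 0 of 19 genes, among them Tfam and Polrmt, were called by edgeR (median 0.05), and the differences between lists were not tested. In controls the same lists gave 8 of 76 ribosomal proteins, 4 of 27 assembly factors of complexes II to V, 5 of 17 glycolytic genes and 1 of 14 complex I assembly factors lower, where 7.62% of all genes were, with Pfkl and Lrpprc (which stabilises mitochondrial mRNAs) as the genes called higher.

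Between genotypes, Eno2 was lower and Aldoc higher in both tissues. In the hippocampus 5 of 17 glycolytic genes were lower, beside 5.95% of all genes, Pfkl at -0.69 (adjusted p = 9.92e-05), Eno2, the neuronal enolase, at -0.43 (adjusted p = 0.00299), Tpi1 at -0.39 (adjusted p = 0.00481), Hk1 at -0.34 (adjusted p = 0.0199) and Eno1 at -0.26 (adjusted p = 0.0329), and Aldoc, the astrocyte aldolase, was higher at 0.33 (adjusted p = 0.0237). Cycs, the cytochrome c that carries electrons from complex III to IV, was lower at -0.33 (adjusted p = 0.0146), and of the citric acid cycle Idh3b was lower at -0.40 (adjusted p = 0.00543) and Suclg2 higher at 0.60 (adjusted p = 0.032). By edgeR, 0 of the assembly factors, ribosomal proteins and biogenesis genes passed there. In cortex Eno2 (-0.33, adjusted p = 0.00937) and Pfkp (-0.49, adjusted p = 0.00206) were lower, and Aldoc (0.42, adjusted p = 0.00404), Hk2 (0.84, adjusted p = 0.0286) and Suclg2 (0.83, adjusted p = 0.0011) were higher. Of the 40 assembly factors tested in cortex 5 were called, close to the 12.5% of all genes, of which Surf1 (0.35, adjusted p = 0.0373), Sdhaf1 (0.36, adjusted p = 0.0401) and Atpaf2 (0.50, adjusted p = 0.0446) were higher and Timmdc1 (-0.61, adjusted p = 0.0273) and Ndufaf1 (-0.42, adjusted p = 0.0367) lower, and Mrps6 was the ribosomal protein called higher. The excitatory neuron and astrocyte markers given above moved in the same libraries, and their part in these calls was not tested.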

How the data were processed

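Counts per gene and library were deposited by the authors as whole numbers without normalization. The submitters' processing notes name cutadapt 1.12, FastQC 0.11.8, STAR, DESeq2 1.44 and the build mm39, without their roles, and the study's methods add zUMIs and name DESeq2 for the tests, with no covariates given. The table has a row for GFP. Whether molecules or reads were counted, the annotation release, and the use of introns and strand are not given in the sources used here, so levels of overlapping or copied genes are uncertain (23 members had a near-identical copy and 38 an overlapping gene in the GENCODE M21 annotation of GRCm38). Symbols were matched on Ensembl numbers, 43308 of 64361 rows, which held 96.1% of the counts. The row for GFP did not enter the fits, and every count column was used. Library totals ranged from 1048201 to 5888102.

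The 5 comparisons were fitted over all genes with edgeR 4.0.16 in R 4.3.3 (TMM, filterByExpr with a minimum count of 10, quasi-likelihood F-test, batch as a term, Benjamini-Hochberg, threshold 0.05), GA-Camk2a against control per tissue, hippocampus against cortex per genotype and the interaction, which share libraries. All 96 members passed the filter in each. SEs are on the log2 scale. The script was tested on simulated data. The sums of mitochondrial and nuclear counts were described without a test. Libraries of a group were different mice, and 46 pairs within groups had 2.10 to 15.1 chi-square per degree of freedom with 0 identical.

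Mouse numbers pair the tissues because the same animal gave both. Deviations from the group means correlated at 0.14 to 0.28 in the 5 mice whose libraries shared a batch and at -0.23 to -0.07 in the 5 whose libraries did not. The named members were all mitochondrial members, Sdha to Sdhd, Cyc1, the catalytic core of complex I, Uqcrfs1, the F1 subunits alpha, beta and gamma, tissue-specific isoforms, the 5 largest called changes in each direction and the 3 lowest interaction p-values. Atp5f1a and the like are listed under older symbols (Atp5a1). Cox6c2, Ndufa2 and Cox7b, called in controls, fell outside this rule. Values of some genes are not reported here. Members and lists were chosen with earlier results of these data known. Alternatives were DESeq2 1.42.0 without batch, other normalizations, no filter, limma-voom (limma 3.58.1), thinned counts, batches alone, the mouse block and leaving out each library, and, chosen after the data were seen, added nuclear copies, tissue comparisons within batches and leaving out 5 hippocampi with high Ttr.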

Additional observations from a re-analysis of the deposited data

Results flagged for a closer look

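Of 188 groups of libraries examined for a value far from the rest (Dixon's criterion at the 95% level, which flags about 1 in 20 groups by chance), 18 held one. In the hippocampus of GA-Camk2a mice, mouse 41 had the highest mitochondrial share (4.89% of counts) and the highest mt-Cytb (19483 CPM), and mouse 30 the highest Atp5a1 (652 CPM). In the hippocampus of controls, mouse 11 stood apart with high Ndufs3 (84.4 CPM) and low Cox7a2 (619 CPM), Uqcrfs1 (269 CPM) and mt-Nd4 (9073 CPM), and mouse 37 had the lowest mt-Nd2 (4604 CPM). In control cortex, mouse 38 had the highest Ndufs1 (162 CPM) and the lowest mt-Nd3 (646 CPM), mouse 11 the lowest Ndufb3 (183 CPM), mouse 20 the highest Ndufa4l2 (8.17 CPM) and mouse 31 the lowest mt-Nd1 (10361 CPM). In GA-Camk2a cortex, mouse 30 had the lowest Cox7a2 (693 CPM) and Cox8a (1615 CPM), mouse 23 the highest Ndufv1 (268 CPM), mouse 34 the highest Cox8b (26.6 CPM, beside the highest cortical Ttr) and mouse 41 the lowest mt-Co3 (75.9 CPM).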

How the results depend on the processing

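Counts of members called varied with the setting, and the share of all genes called in the same fit is given in brackets. In cortex between genotypes 1 was called (12.5%), with 2 by limma-voom (11.6%) and 0 after thinning to the smallest library (6.68%). In batch 1 alone 0 were called (6.26%), in batch 2 alone 0 (1.95%), and 0 to 1 with 1 library left out (7.99% to 12.1%). In hippocampus between genotypes it was 4, with 10 by DESeq2 without the batch term, 1 under upper quartile normalization, 11 without the filter, 7 by limma-voom, 2 after thinning, 0 in either batch alone, 0 without the high-Ttr hippocampi (which leaves 5 libraries) and 1 to 8 with 1 library left out. Between tissues in controls 12 were called (16.5%), with 7 without the filter (4.53%), 5 without the batch term (14.4%) and 43 by limma-voom (23.8%). After thinning 3 were called (5.44%), in batch 1 alone 5 (8.01%) and in batch 2 alone 3 (9.75%). Without the high-Ttr hippocampi 6 were called (11.3%), and 4 to 41 with 1 library left out (11.5% to 22.7%). In GA-Camk2a mice 57 were called (33.3%), with 25 in batch 1 alone (17.8%), 13 in batch 2 alone (10.3%) and 52 to 62 with 1 library left out (27.0% to 32.1%). The nuclear median stayed between -0.36 and -0.25 in every setting. For the interaction 0 were called (0.414%), with 2 without the filter (0.249%) and 0 with any 1 library left out (0.143% to 0.442%). The share of all genes called moved with the setting as well, over 1.95% to 12.5% and 0.720% to 12.6% for the genotypes in cortex and hippocampus. Between tissues it ran over 4.53% to 23.8% in controls (lowest without the filter, highest by limma-voom) and 7.94% to 33.3% in GA-Camk2a mice, and for the interaction over 0.0158% to 0.759%. The nuclear median of the interaction was -0.12, with -0.06 without hippocampus GA-Camk2a mouse 23 and -0.04 without cortex control mouse 31. The mitochondrial median between tissues in GA-Camk2a mice was -0.21, with -0.11 in batch 1 alone. In cortex between genotypes the medians ran from -0.12 to 0.04 for mitochondrial and -0.02 to 0.08 for nuclear members. The cause of these shifts was not tested, and fits of single batches also held fewer libraries.

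With the mouse as a replicate block, the pairing changed the controls (6 called in place of 12) and no other count by more than 1.5 times (59 in GA-Camk2a mice and 0 for the interaction). The genotype comparisons within a tissue hold 1 library per mouse and cannot be paired.

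Some directions reversed. Of the medians, the cortex genotype difference became 0.04 for mitochondrial members without control mouse 11, and -0.02 without control mouse 31 and -0.00 in batch 2 alone for nuclear members. The mitochondrial median between tissues of controls turned positive in 6 settings (at most 0.04). Of named members, mt-Atp6 between tissues in controls was 0.26, and -0.48 without hippocampus control mouse 11 (up to 0.50 without the others). Between tissues in GA-Camk2a mice, Cox8b was -0.014 and Cox6b2 -0.12 without the high-Ttr hippocampi, and mt-Co2 was -0.27 with its nuclear copy added. The difference in the log2 ratio of mitochondrial to nuclear counts ranged over the left-out libraries from -0.16 to -0.05 in cortex and -0.16 to -0.06 in hippocampus between genotypes, and from 0.06 to 0.17 in controls and 0.07 to 0.13 in GA-Camk2a mice between tissues. Depth limits the low members most. Ndufa4l2 held 4 to 32 counts per library and Cox8b 2 to 448, and 93 to 95 of the 96 members passed the filter after thinning.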
